A study of Mus musculus with 16 samples.

Results

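Gene expression on 8 arrays labelled as transformed mouse embryonic fibroblasts (MEFs) was set against that on 8 arrays labelled as primary MEFs, which are all 16 arrays of the series. The 8 transformed-labelled arrays carry the titles that begin with pbabe or cre and came, by their labels, from MEFs transformed with RasV12 and E1A. Of these, 4 had a floxed Smad1 gene (Smad1f/f) and 4 had lost it (Smad1-/-), and in each genotype 1 array was untreated at 0 h and 1 each had 12 h of BMP2, of Adriamycin (ADR, doxorubicin) or of both. The 8 primary-labelled arrays came from non-transformed MEFs at passage 2, untreated (CTRL) or given BMP2, ADR or both, with each of these conditions at 8 h and at 16 h. BMP2 is a bone morphogenetic protein and ADR breaks DNA through topoisomerase II. The doses are uncertain, since BMP2 is put at 100 ng/ml in sample titles but at 50 ng/ml in the design text, and ADR at 0.3 uM in titles but at 1 ug/ml in that text. Both sets are called MEF cell lines in the labels, no culture or clone is named, and 1 array was run per condition. All agents, genotypes and times were pooled within a set, so the p-values below measure a difference against the spread over these conditions. The sets differ in time as well as in label, with 0 h and 12 h in the first and 8 h and 16 h in the second, and these cannot be told apart. A gene was called when its adjusted p was under 0.05 and all 8 arrays of one set lay above all 8 of the other, and 3444 of 10982 tested genes were called.

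Fibroblasts are the mesenchymal cells that build and remodel the extracellular matrix, and cultured fibroblasts often add the smooth muscle actin cytoskeleton of the myofibroblast. Ras relays growth factor signals through RAF, MEK and ERK kinases to immediate early genes, ETS factors and the phosphatases that feed back on ERK, and oncogenic Ras keeps that output on. E1A is an adenoviral protein that binds the retinoblastoma protein and so releases E2F factors, which switch on genes of DNA replication, and it represses many differentiation genes. Fibroblasts transformed by these 2 oncogenes are therefore known for strong E2F activity and for the loss of matrix and contractile genes.

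Several measurements went against the labels of the sets. Genes of fibroblast matrix, contraction and surface were high on the transformed-labelled arrays and often undetected on the primary-labelled ones, while the called targets of ERK and of E2F were more often lower than higher on the transformed-labelled arrays. No tested probe named Hras or Trp53, and whether the labels of the sets were exchanged was not tested. All groups are therefore named by label only. Smad1 itself, the deleted gene, had signals of 633.9, 436.7, 462.1 and 520.6 on the Smad1f/f arrays and 430.4, 434.6, 582.5 and 687.3 on the Smad1-/- arrays, in the order CTRL, BMP2, ADR and both, and whether its probe lies in the deleted stretch is not known. Between 40.1% and 46.8% of 24613 probes were detected per array. The Pearson correlation of log2 signals across probes lay between 0.952 and 0.996 for pairs of transformed-labelled arrays, between 0.981 and 0.995 for pairs of primary-labelled arrays, and between 0.882 and 0.924 for pairs from different sets. With BMP2 alone, the Smad1-/- signals as deposited are a copy of the Smad1f/f ones, so this array's signals were recovered from the authors' log2 table. As the samples are bulk RNA, fewer cells of a type and less RNA per cell cannot be told apart.

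The difference between the sets was lopsided in size. Genes higher on the transformed-labelled arrays numbered 1566, or 14.3% of those tested, and genes lower there numbered 1878, or 17.1%, together 31.4%. These shares are the background for each count of called list members below. Adjusted p alone passed 59.9% of all genes. Of the called genes 910 were higher by at least 1 on the log2 scale and 584 lower by as much. At a log2 difference of at least 3 the counts were 138 higher and 8 lower, and at 5 they were 32 higher and 1 lower. Among the higher genes 403 were undetected on all 8 primary-labelled arrays, and among the lower ones 131 were undetected on all 8 transformed-labelled arrays. Genes undetected throughout 1 set passed the detection filter through the other set alone, which fixes their direction, and they were 13 of 27 tested matrix genes other than collagen, 6 of 13 collagen genes, 8 of 17 contractile genes and 13 of 39 growth factors. They were also 9 of 16 cytokines and chemokines, 3 of 5 IGF binding proteins and 7 of 32 pentose phosphate and redox genes. Among fibroblast surface and mesenchymal genes they were 5 of 20, and among all tested genes 1582 of 10982. The gap between the sets, from the nearest array of one to the nearest of the other, had a median of 0.30 on the log2 scale over called genes and reached 8.07. At the edge of the rule the sets of Lad1, Nme2 and Rell1 were apart by 3.5e-05, 5.8e-05 and 0.00011, and those of Krt17, Ppp5c and 2810021J22Rik overlapped by a gap of -0.00019, -0.00028 and -0.00034. Over all tested genes the median difference was -0.049. The values were not background subtracted, which compresses differences: with background correction the difference of Acta2 was 10.03 in place of 8.60, and that of Il24 -6.99 in place of -5.52.

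**Figure D1:**
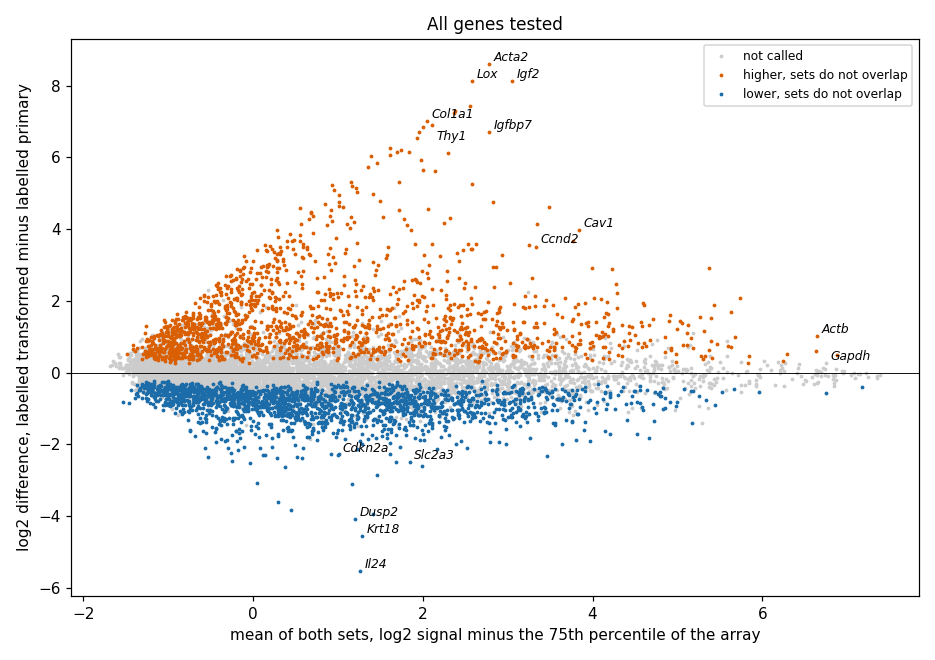
The plot of all 10982 tested genes shows the log2 difference, transformed-labelled minus primary-labelled, against the mean log2 level of both sets relative to the 75th percentile of the array, with called genes coloured. Called genes with a log2 difference of at least 3 in size number 138 above the line and 8 below it.

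The 6 marker genes separated the sets completely. They were chosen with earlier results of these data known, so their separation is a description and no test of the sets. Signals are given below as the lowest, the median and the highest of the 8 arrays of a set, in the arbitrary units of the scanner, and differences as log2 units ± standard error. Acta2, the smooth muscle actin of myofibroblasts, had signals of 23872.3, 26980.5 and 29206.1 on the transformed-labelled arrays, against 47.0, 65.9 and 76.5 on the primary-labelled arrays, where no array detected it. Its log2 difference was 8.60 ± 0.10 (adjusted p = 8.53e-21), at least 279-fold, a bound taken from the lowest detected signals because the lower set lay at background. Folds against a set that detected a gene on no array are given as such bounds throughout, and the fitted difference of such a gene depends on the background level. Every transformed-labelled array stood more than 2 orders of magnitude above every primary-labelled one. Igf2, the fetal growth factor, had 24538.8, 27283.1 and 30674.6 on the transformed-labelled arrays, against 80.1, 87.9 and 102.8 on the primary-labelled arrays, 4 of which detected it. This was a difference of 8.14 ± 0.072 (adjusted p = 1.13e-22), or 9.33 with background correction, and no fold is given because the lower set lay close to background.

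Col1a1 and Thy1 followed the same pattern. Col1a1, the main chain of type I collagen, gave 7128.5, 8805.8 and 12419.4 on transformed-labelled arrays and 54.0, 65.2 and 81.2 on primary-labelled arrays, with a difference of 7.02 ± 0.14 (adjusted p = 9.9e-18, at least 97-fold). For Thy1, a surface glycoprotein used to mark fibroblasts, the signals were 7838.2, 8954.9 and 11222.2 on transformed-labelled arrays and 60.4, 72.2 and 82.6 on primary-labelled ones, with a difference of 6.90 ± 0.10 (adjusted p = 1.55e-19, at least 97.1-fold). Neither was detected on any primary-labelled array. Among the transformed-labelled arrays Col1a1 was highest on the 2 with ADR alone, at 11614.3 (Smad1f/f) and 12419.4 (Smad1-/-), and lowest on the 2 with both agents, at 7197.4 and 7128.5.

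Krt18 and Il24 ran the other way. Krt18, a keratin of simple epithelia, had signals of 85.2, 99.7 and 110.4 on the transformed-labelled arrays, against 1557.8, 2093.4 and 3836.9 on the primary-labelled arrays, a difference of -4.55 ± 0.16 (adjusted p = 5.64e-14). Il24, a cytokine of the IL-10 family that is induced in Ras-transformed fibroblasts of the rat, had 60.7, 68.2 and 79.3 on the transformed-labelled arrays, none of which detected it. On the primary-labelled arrays it had 1600.3, 3236.2 and 5197.2, which gives a difference of -5.52 ± 0.21 (adjusted p = 1.92e-13), at least 34.8-fold. Both varied with BMP2 among the primary-labelled arrays. Il24 stood at 2089.9, 1600.3, 2369.7 and 1882.4 on the 4 such arrays with BMP2, alone or with ADR, and at 5197.2, 4102.6, 4410.2 and 4174.3 on the 4 without it. Those groups of 4 did not overlap, and a test of BMP2 within that set was not part of this comparison. Il24 had a second probe, with a difference of -3.49, and Acta2 had 2 more, with 6.70 and 5.72. Over the called genes among the 161 genes tabulated by name, 33 had 46 other kept probes, of which 32 were called the same way, 13 were not called and 1, of Actb, was called the other way. Some gave far smaller differences than the brightest probe, which stands for its gene here: 0.71 for Itga11, 0.50 for Col6a1 and 0.39, not called, for Col3a1.

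**Figure D2:**
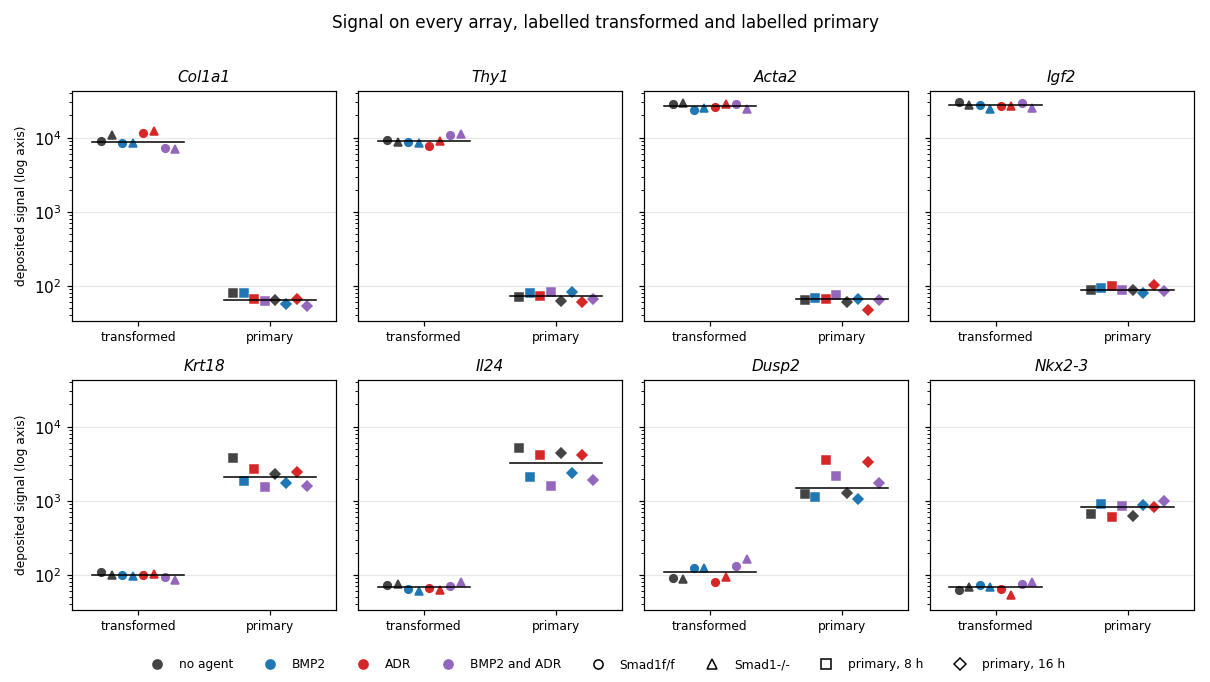
The plot of signals by array shows 8 genes, with each point 1 array, colour for the agent, shape for the genotype or the time, bars for the median of a set and a log axis of deposited signal. Col1a1, Thy1, Acta2 and Igf2 are higher on all 8 transformed-labelled arrays than on any primary-labelled array, and Krt18, Il24, Dusp2 and Nkx2-3 are lower on all 8.

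Genes of the fibroblast surface and of mesenchymal cells, some of them for proteins inside the cell, were mostly higher on the transformed-labelled arrays. Of 20 tested members of the fibroblast surface and mesenchymal list 13 were higher and 0 lower, with a median difference of 1.29, or 0.82 with undetected members at their bound. S100a4, a calcium-binding protein of motile fibroblasts, had 3267.5, 3945.2 and 4983.0 on transformed-labelled arrays, against 86.2, 97.2 and 99.7 on primary-labelled arrays, a difference of 5.32 ± 0.074 (adjusted p = 6.85e-20). Vcam1, an adhesion molecule for integrins on leukocytes, differed by 3.46 ± 0.22 and Ncam1, a homophilic adhesion molecule, by 2.61 ± 0.095, at least 4.63-fold for Ncam1. Snai2, a transcriptional repressor of the epithelial state, differed by 2.69 ± 0.27 and Prrx1, a homeobox factor of limb mesenchyme, by 2.21 ± 0.25. Twist1, a helix-loop-helix factor of mesenchyme, was not called, with 287.0, 528.8 and 599.1 on the transformed-labelled arrays, against 440.4, 518.0 and 583.7 on the primary-labelled arrays (difference -0.24 ± 0.12, adjusted p = 0.0792). Its sets overlapped, as did those of Snai1, Zeb1, Twist2, Ddr2, Nt5e and Eng.

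Adhesion receptors and their partners at the cell surface showed 21 of 36 tested members higher and 3 lower, with a median of 0.99, or 0.95 with bounds. Itga11, the integrin subunit that binds fibrillar collagen, had signals of 3060.5, 5138.5 and 8249.3 on transformed-labelled arrays, against 60.5, 66.2 and 79.2 on primary-labelled arrays, none of which detected it (difference 6.07 ± 0.17, adjusted p = 1.51e-15, at least 51.4-fold). Cav1, the coat protein of caveolae, had 8667.7, 10990.3 and 14102.3 on transformed-labelled arrays and 475.8, 644.4 and 856.3 on primary-labelled arrays, a difference of 3.99 ± 0.09 (adjusted p = 8.7e-17). Other integrin chains were higher as well: Itgb1, the shared beta chain, by 1.51 ± 0.085, Itgb5 by 1.60 ± 0.10 and Itga5, of the fibronectin receptor, by 1.24 ± 0.19. Efnb1 and Efnb2, membrane-bound ligands of Eph receptors, were higher by 2.49 ± 0.10 and 2.10 ± 0.20, and Mcam, an adhesion molecule of mural cells and melanoma, by 2.04 ± 0.091. Sdc1 and Sdc2, syndecans that carry heparan sulfate, were higher by 1.27 ± 0.13 and 2.16 ± 0.082.

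The 3 lower members were Podxl, Itga3 and Cd44. Podxl, a sialomucin of podocytes and of stem cells, had 81.3, 94.5 and 115.2 on transformed-labelled arrays and 266.3, 422.0 and 764.6 on primary-labelled arrays (difference -2.30 ± 0.21, adjusted p = 3.06e-08). Itga3, the laminin-binding integrin chain of epithelia, had 186.7, 287.4 and 460.6 on transformed-labelled arrays and 652.4, 875.6 and 1296.6 on primary-labelled arrays (difference -1.74 ± 0.21, adjusted p = 1.53e-06). Cd44, the hyaluronan receptor, rested on 1 of 4 kept probes, which was detected on 0 transformed-labelled and 8 primary-labelled arrays, with 74.7, 85.5 and 87.4 on the transformed-labelled arrays and 99.2, 110.2 and 152.6 on the primary-labelled arrays (difference -0.61 ± 0.09). Its other probes were not called, at -0.10, -0.13 and -0.27, and were detected on 3, 5 and 1 transformed-labelled arrays. Of the 36 tested adhesion receptors and partners 58.3% were higher and 8.3% lower, against 14.3% and 17.1% of all genes. The higher share was above that of all genes and the lower share below it.

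Icam1, the ligand of leukocyte integrins, was higher with a wide spread. Its signals were 314.3 and 310.3 on the untreated transformed-labelled arrays (Smad1f/f and Smad1-/-), 254.6 and 303.4 with ADR, 2323.2 and 2398.0 with BMP2, and 4661.3 and 5481.5 with both agents. On the primary-labelled arrays the lowest, median and highest signals were 71.8, 84.0 and 106.6. All 8 transformed-labelled arrays were above all primary-labelled ones, by 3.46 ± 0.64 on average (adjusted p = 0.000145).

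Of 27 tested matrix genes other than collagen 24 were higher and 0 lower (median 2.86, or 2.61 with bounds), and of 13 collagen genes 12 were higher and 0 lower (median 4.23). Lox, the cross-linking enzyme lysyl oxidase, had 17360.7, 19429.5 and 22106.7 on transformed-labelled arrays, against 57.1, 65.1 and 76.6 on primary-labelled arrays, where it was undetected (difference 8.12 ± 0.096, adjusted p = 7.48e-21, at least 205-fold). Its relative Loxl1 differed by 6.55 ± 0.11, at least 75.6-fold, and Loxl2 by 3.12 ± 0.063. Elastic fibre proteins included Fbln2, fibulin-2, which had 11097.3, 12416.8 and 14755.6 on transformed-labelled arrays and 60.7, 74.8 and 106.4 on primary-labelled arrays (difference 7.23 ± 0.10, adjusted p = 6.81e-20). Elastin itself, Eln, differed by 2.99 ± 0.19.

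Small proteoglycans and matricellular proteins moved with them. Bgn, biglycan, had 4982.3, 5498.4 and 6879.5 on transformed-labelled arrays and 60.0, 72.2 and 77.8 on primary-labelled arrays (difference 6.21 ± 0.082, at least 58.9-fold), and Dcn, decorin, differed by 4.59 ± 0.14. Thbs2, thrombospondin-2, had 6252.2, 7552.6 and 10680.1 on transformed-labelled arrays and 57.9, 69.0 and 82.0 on primary-labelled arrays (difference 6.70 ± 0.11, at least 81.2-fold). Thbs1 differed by 3.52 ± 0.15, Tnc, tenascin-C, by 4.57 ± 0.17 and Postn, periostin, by 2.83 ± 0.093. The members detected in both sets give folds that are not set by the detection limit, but without background subtraction these folds are compressed. Fn1, fibronectin, had 2416.5, 2878.7 and 3660.4 on transformed-labelled arrays and 152.6, 233.8 and 295.1 on primary-labelled arrays, 12-fold (difference 3.59 ± 0.11, adjusted p = 5.26e-15). Sparc, a collagen-binding glycoprotein, had 2678.9, 3808.1 and 5521.1 on transformed-labelled arrays and 213.7, 324.5 and 502.4 on primary-labelled arrays, 10.9-fold. Lamc1, a laminin chain of basement membranes, was not called, with 828.1, 986.0 and 1238.2 on transformed-labelled arrays and 899.4, 1052.8 and 1120.2 on primary-labelled arrays (difference -0.17 ± 0.09, adjusted p = 0.113). Outside the lists, Serpinf1, a secreted serpin that is known as pigment epithelium-derived factor, had 13286.0, 15023.2 and 17264.1 on transformed-labelled arrays and 75.6, 81.2 and 88.7 on primary-labelled arrays (difference 7.43 ± 0.072, adjusted p = 3.73e-22).

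Collagens of several classes were higher, beyond the fibrillar type I. Col6a1, a chain of the beaded filaments, differed by 6.14 ± 0.13, Col5a1, which nucleates fibrils, by 4.62 ± 0.13, Col3a1 by 4.70 ± 0.13 and the network collagens Col4a1 and Col4a2 by 2.64 ± 0.14 and 2.21 ± 0.11. Col14a1 was the 1 tested collagen not called (difference 0.13 ± 0.074). Collagen medians depended on the probe rule, with 2.64 when the probes of a gene were averaged in place of the brightest.

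**Figure D3:**
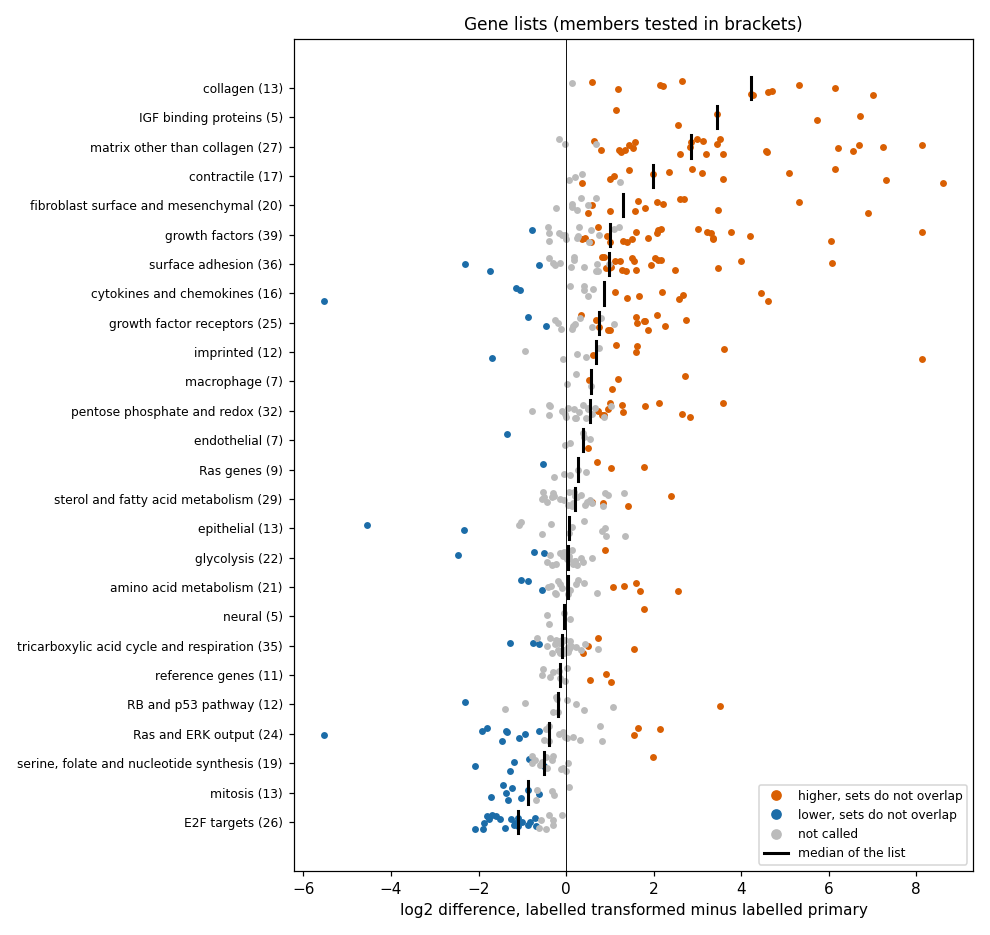
The plot of gene lists shows 1 point per tested member at its log2 difference, transformed-labelled minus primary-labelled, with higher calls in orange, lower calls in blue, other members in grey and the list's median as a bar. Collagen, IGF binding proteins and other matrix genes lie to the right with medians of 4.23, 3.45 and 2.86, and E2F targets and mitosis genes to the left with -1.10 and -0.86.

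Contractile genes were higher in 13 of 17 tested members and lower in 0, with a median of 1.98. After Acta2 came Actg2, the enteric smooth muscle actin, with 9728.2, 12578.8 and 17266.6 on transformed-labelled arrays and 68.4, 76.6 and 84.0 on primary-labelled arrays, where no array detected it (difference 7.30 ± 0.12, adjusted p = 7.37e-19, at least 134-fold). Csrp1, a LIM protein of the actin cytoskeleton, differed by 6.14 ± 0.10 and Tagln, the actin-binding protein SM22, by 5.10 ± 0.12, at least 61.4-fold and 23.3-fold. Cnn2, calponin-2, was detected in both sets, with 2486.7, 3985.5 and 5696.5 on transformed-labelled arrays and 232.1, 322.2 and 343.6 on primary-labelled arrays, 12.1-fold (difference 3.59 ± 0.15, adjusted p = 6.7e-13). Acta1, skeletal muscle actin, had 385.0, 600.0 and 786.4 on transformed-labelled arrays and 53.4, 65.0 and 73.5 on primary-labelled arrays (difference 3.10 ± 0.14, at least 6.03-fold). Srf, the factor that binds the CArG box in promoters of this class, was not called (difference 0.36 ± 0.096), nor were Myocd, Des and Lmod1.

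The CArG box was searched on both strands in the 250 bases before each RefSeq gene start (GRCm38.p6), and it was found for 4 of the 13 tested contractile genes with a window, Cnn2, Acta1, Actc1 and Srf. The share is 30.8%, against 1.3% of the 7628 tested genes with a window. The list is of a class known for this box, so the share is no test of the set difference. The 2 windows below belong to called members and show the box in capitals, starting 56 bases before the start of Cnn2 (chr10:79988350-79988599, plus strand) and 73 bases before that of Acta1 (chr8:123894776-123895025, minus strand). A match describes letters and is not a measured binding site.
Cnn2: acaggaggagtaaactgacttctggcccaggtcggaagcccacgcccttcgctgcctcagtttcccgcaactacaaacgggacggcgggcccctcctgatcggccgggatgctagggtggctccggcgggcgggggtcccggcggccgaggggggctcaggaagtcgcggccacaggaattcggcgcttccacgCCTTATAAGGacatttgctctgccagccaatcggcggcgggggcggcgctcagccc
Acta1: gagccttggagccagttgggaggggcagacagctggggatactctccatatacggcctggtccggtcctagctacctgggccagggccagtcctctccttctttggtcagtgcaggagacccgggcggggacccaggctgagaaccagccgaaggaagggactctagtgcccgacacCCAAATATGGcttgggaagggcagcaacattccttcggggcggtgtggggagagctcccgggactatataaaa

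Ras output genes were called in both directions, more often lower. Of 24 tested members of the Ras and ERK output list 3 were higher on the transformed-labelled arrays and 9 lower, with a median of -0.39. Feedback phosphatases of ERK were among the lower ones. Dusp6 had 316.8, 623.8 and 851.0 on transformed-labelled arrays and 1433.7, 2068.6 and 2494.9 on primary-labelled arrays (difference -1.91 ± 0.18, adjusted p = 5.29e-08), and Dusp4 had 195.8, 401.8 and 523.0 on transformed-labelled arrays and 645.6, 824.8 and 1367.9 on primary-labelled arrays (difference -1.46 ± 0.18). Both sets stood apart without overlap. Outside the list Dusp2, a nuclear phosphatase of ERK and p38, had 79.2, 108.8 and 166.5 on transformed-labelled arrays and 1048.8, 1512.1 and 3560.1 on primary-labelled arrays (difference -4.09 ± 0.25, adjusted p = 1.82e-10). Its highest primary-labelled signals, 3560.1 at 8 h and 3317.7 at 16 h, were those with ADR alone.

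The PEA3 group of ETS factors, which ERK induces, moved together. Etv4 had 209.7, 297.4 and 347.2 on transformed-labelled arrays and 824.0, 931.6 and 1026.7 on primary-labelled arrays (difference -1.81 ± 0.10, adjusted p = 6.89e-11), Etv1 differed by -1.08 ± 0.091 and Etv5 by -0.94 ± 0.11. Egr1, the immediate early zinc finger factor, had 1934.8, 3321.7 and 5473.4 on transformed-labelled arrays and 6961.6, 7829.6 and 8353.0 on primary-labelled arrays (difference -1.34 ± 0.16, adjusted p = 1.45e-06). Within the transformed-labelled arrays Egr1 was highest with both agents, at 5473.4 (Smad1f/f) and 5292.3 (Smad1-/-), still below the lowest primary-labelled array. Plaur, the urokinase receptor, had 182.5, 300.6 and 649.5 on transformed-labelled arrays and 726.2, 788.6 and 914.8 on primary-labelled arrays (difference -1.37 ± 0.21, adjusted p = 2.12e-05).

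The 3 higher members of that list were Ccnd1, Mmp3 and Mmp13. Ccnd1, cyclin D1, had 4605.2, 6636.3 and 7362.9 on transformed-labelled arrays and 1403.5, 1848.2 and 3138.7 on primary-labelled arrays (difference 1.64 ± 0.16, adjusted p = 9.23e-08). Mmp3, the protease stromelysin-1, had 146.8, 336.7 and 562.9 on transformed-labelled arrays and 59.4, 66.7 and 76.7 on primary-labelled arrays, none of which detected it (difference 2.15 ± 0.26, at least 3.33-fold). Mmp13, collagenase 3, differed by 1.55 ± 0.14. Fosl1, Hbegf, Phlda1, Spry4 and Myc were among the 12 members not called, with differences of -0.47 ± 0.17, -0.39 ± 0.18, -0.51 ± 0.18, -0.027 ± 0.084 and 0.032 ± 0.097. Emp1, Plau and Spred1, also not called, differed by 0.78 ± 0.20, 0.83 ± 0.31 and -0.39 ± 0.089. Cd44, among the lower calls, rested on a single probe, and its other probes were not called. The 14.3% and 17.1% of all genes are the background for the counts of this list.

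Plaur and Mmp3, called in opposite directions, both carry an AP-1 element (TGANTCA, read on both strands) in the same 250-base window. It starts 69 bases before Plaur (chr7:24462233-24462482, plus strand) and 46 bases before Mmp3 (chr9:7445572-7445821, plus strand) and is shown in capitals. Of 13 tested Ras and ERK output genes with a window 5 carry it, or 38.5%, against 4.6% of tested genes: Plaur was lower, Mmp3 and Mmp13 higher, and Lif and Emp1 not called. The list was drawn up as Ras and ERK output, so this share is no test of the set difference.
Plaur: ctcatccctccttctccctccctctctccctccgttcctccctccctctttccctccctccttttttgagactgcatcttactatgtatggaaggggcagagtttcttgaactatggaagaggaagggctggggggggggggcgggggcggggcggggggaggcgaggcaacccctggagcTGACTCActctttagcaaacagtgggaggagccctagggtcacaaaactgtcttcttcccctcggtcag
Mmp3: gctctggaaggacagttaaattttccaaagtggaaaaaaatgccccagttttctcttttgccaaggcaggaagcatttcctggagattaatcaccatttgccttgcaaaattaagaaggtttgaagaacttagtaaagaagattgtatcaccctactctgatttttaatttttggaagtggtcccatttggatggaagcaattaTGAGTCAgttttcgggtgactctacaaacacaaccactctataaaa

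**Figure D4:**
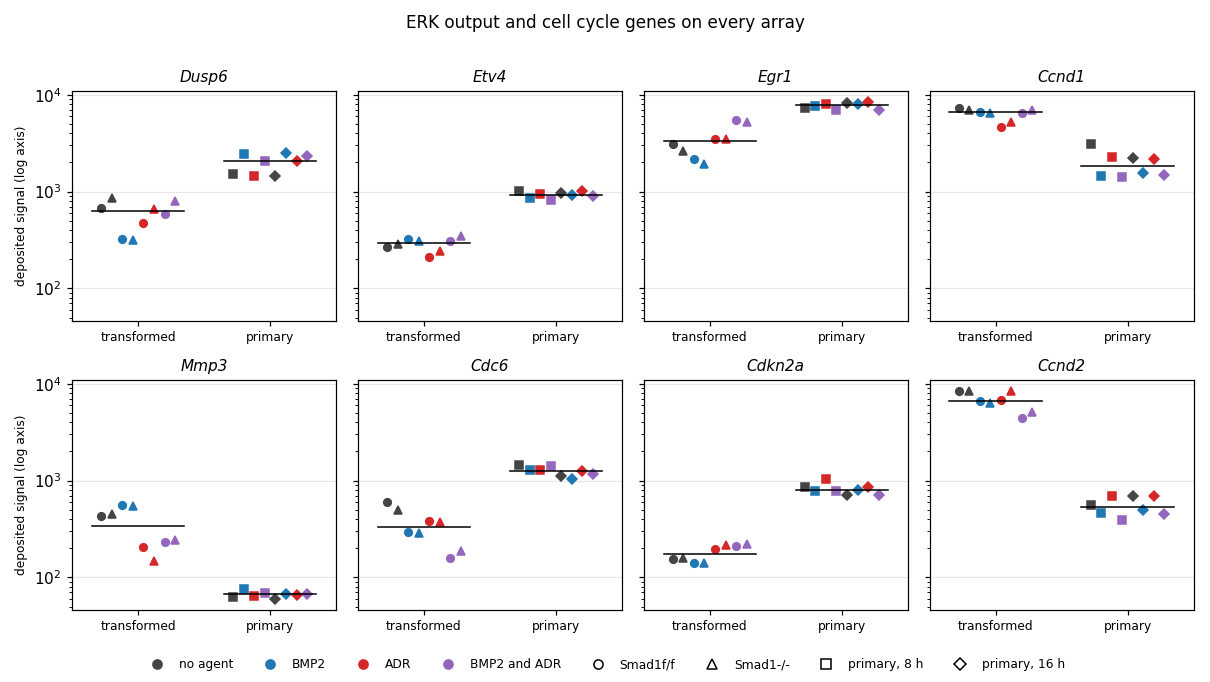
The plot of ERK output and cell cycle genes by array uses a log axis of deposited signal, 1 point per array, colour for the agent, shape for genotype or time and bars for the medians. Dusp6, Etv4, Egr1, Cdc6 and Cdkn2a are lower on all 8 transformed-labelled arrays than on any primary-labelled array, and Ccnd1, Mmp3 and Ccnd2 are higher.

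Components of the Ras pathway itself showed 3 of 9 tested members higher and 1 lower. These shares, 33.3% and 11.1%, stand beside 14.3% and 17.1% of all genes. Rras, the R-Ras GTPase, had 908.2, 1099.0 and 1362.8 on transformed-labelled arrays and 218.4, 292.6 and 431.5 on primary-labelled arrays (difference 1.79 ± 0.098, adjusted p = 3.81e-11). Rasa1, a GTPase-activating protein that turns Ras off, differed by 1.02 ± 0.13, Mras, a close relative of Ras, by 0.70 ± 0.088 and the kinase Araf by -0.52 ± 0.094. With arrays centred on their median Araf lost its call, at -0.49. Nras had 110.4, 147.5 and 191.7 on transformed-labelled arrays and 148.4, 160.6 and 200.4 on primary-labelled arrays and was not called (difference -0.27 ± 0.094, adjusted p = 0.0199).

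E2F targets were lower on the transformed-labelled arrays in 19 of 26 tested cases and higher in 0, with a median of -1.10. Cdc6, which loads the replicative helicase, had 159.1, 334.8 and 594.1 on transformed-labelled arrays and 1033.8, 1262.2 and 1458.0 on primary-labelled arrays (difference -2.07 ± 0.21, adjusted p = 2.04e-07). The lowest Cdc6 signals, 159.1 (Smad1f/f) and 186.5 (Smad1-/-), were those with both agents, but the untreated transformed-labelled arrays, at 594.1 and 491.7, also lay below all primary-labelled ones. Cdt1, the other loading factor, had 234.3, 367.0 and 633.7 on transformed-labelled arrays and 1012.7, 1123.7 and 1439.9 on primary-labelled arrays (difference -1.75 ± 0.19, adjusted p = 5.17e-07). Helicase subunits were lower, with Mcm2 at -1.81 ± 0.28, Mcm5 at -1.40 ± 0.24, Mcm6 at -1.10 ± 0.15 and Mcm7 at -1.17 ± 0.09. Uhrf1 and Dnmt1, which keep DNA methylation through replication, differed by -1.89 ± 0.29 and -1.87 ± 0.24. Tk1, thymidine kinase 1, had 194.4, 622.2 and 1093.3 on transformed-labelled arrays and 1235.2, 1521.3 and 1714.2 on primary-labelled arrays (difference -1.59 ± 0.30, adjusted p = 0.000202). E2f1 itself, Rrm1, Rrm2, Ccne1, Ezh2, E2f3 and Cdkn2c were not called, with differences between -0.62 and -0.099.

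The E2F element was searched as TTTCCCGC, TTTCGCGC, TTTGCCGC or TTTGGCGC on both strands. It was found in the 250-base windows of 7 of 23 tested E2F targets, or 30.4%, against 3.3% of tested genes. As this list was drawn up as E2F targets, that share follows from its choice and is no test of the set difference. The element was found in 5.9% of genes lower on the transformed-labelled arrays and 2.2% of genes higher there. For the AP-1 element the shares of lower and higher genes were 2.9% and 6.0%, and for the CArG box 1.2% and 2.3%. Differences between these shares were not tested. Cdc6 has 1 E2F match, 138 bases before its start (chr11:98907901-98908150, plus strand). Mcm6 has 3, at 110, 106 and 47 bases before its start (chr1:128359706-128359955, minus strand), and the first 2 overlap to form 1 run of capitals.
Cdc6: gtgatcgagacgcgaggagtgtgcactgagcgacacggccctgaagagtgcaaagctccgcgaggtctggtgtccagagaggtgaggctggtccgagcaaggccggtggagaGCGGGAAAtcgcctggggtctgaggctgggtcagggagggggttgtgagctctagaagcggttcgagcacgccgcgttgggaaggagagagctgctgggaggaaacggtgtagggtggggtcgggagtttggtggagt
Mcm6: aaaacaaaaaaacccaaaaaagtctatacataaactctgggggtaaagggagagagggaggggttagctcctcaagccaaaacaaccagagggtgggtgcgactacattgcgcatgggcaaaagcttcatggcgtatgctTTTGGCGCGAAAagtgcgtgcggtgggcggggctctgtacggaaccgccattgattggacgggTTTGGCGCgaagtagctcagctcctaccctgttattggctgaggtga

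Genes of mitosis were lower in 8 of 13 tested cases and higher in 0, with a median of -0.86. Top2a, topoisomerase II alpha, had 128.4, 376.8 and 687.7 on transformed-labelled arrays and 759.6, 960.8 and 1335.0 on primary-labelled arrays (difference -1.71 ± 0.30, adjusted p = 7.23e-05). Aurkb, the kinase of the chromosomal passenger complex, differed by -1.44 ± 0.17, its partner Birc5, survivin, by -1.37 ± 0.21, Cdk1, the kinase that starts mitosis, by -1.32 ± 0.20 and Ube2c, a ubiquitin enzyme of anaphase, by -1.23 ± 0.13. Kif23, a kinesin of cytokinesis, was not called, and its difference of 0.062 ± 0.17 changed sign with quantile normalization, at -0.048.

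In the RB and p53 pathway 1 of 12 tested genes was higher and 1 lower. Each is 8.3%, below the 14.3% and 17.1% of all genes. Cdkn2a, which encodes p16 and p19ARF and is known to be high in cells that lack RB or p53 function, had 141.3, 175.7 and 220.8 on transformed-labelled arrays and 711.3, 792.8 and 1030.1 on primary-labelled arrays (difference -2.30 ± 0.11, adjusted p = 4.6e-12). Ccnd2, cyclin D2, had 4383.3, 6707.4 and 8499.8 on transformed-labelled arrays and 388.3, 532.0 and 687.3 on primary-labelled arrays (difference 3.52 ± 0.15, adjusted p = 9.36e-13, 11.4-fold). The sets of both genes were far apart. Cdkn1a, Mdm2 and Rb1 were not called, with differences of -0.23 ± 0.27, -1.39 ± 0.28 and -0.18 ± 0.26. Of these, Mdm2 passed on adjusted p (0.000336) with sets that overlap. Smad1 differed by -0.011 ± 0.13 (adjusted p = 0.95), and its sign changed with median scaling.

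Growth factors were more often higher than lower on the transformed-labelled arrays, 23 and 1 of 39 tested, with a median of 1.00, or 0.93 with bounds. After Igf2 came Ptn, pleiotrophin, a heparin-binding factor, with 2972.9, 4371.8 and 5789.1 on transformed-labelled arrays and 52.8, 60.1 and 62.1 on primary-labelled arrays, none of which detected it (difference 6.05 ± 0.12, adjusted p = 1.61e-17, at least 43.8-fold). Its relative Mdk, midkine, differed by 2.11 ± 0.26. Gas6, the ligand of the TAM receptors, had 1234.7, 1989.3 and 2442.4 on transformed-labelled arrays and 84.0, 94.3 and 134.4 on primary-labelled arrays (difference 4.20 ± 0.11, adjusted p = 5.5e-16). Wnt5a, a non-canonical Wnt ligand, had 854.6, 1381.7 and 2352.6 on transformed-labelled arrays and 65.9, 87.0 and 175.8 on primary-labelled arrays (difference 3.76 ± 0.25, adjusted p = 7.3e-10).

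Ligands of the TGF-beta family were among the higher ones. Tgfb2 had 816.5, 1315.2 and 1802.0 on transformed-labelled arrays and 101.7, 119.6 and 148.7 on primary-labelled arrays (difference 3.35 ± 0.14, adjusted p = 6.34e-13). Tgfb3 differed by 3.01 ± 0.095, Bmp4 by 3.22 ± 0.12 and Inhbb, the activin beta B chain, by 3.36 ± 0.15, while Tgfb1 was not called (difference -0.38 ± 0.15). Vascular factors were higher in part, with Vegfa at 0.93 ± 0.12, Vegfc at 1.60 ± 0.14, Vegfd at 1.86 ± 0.08 and Angpt2 at 2.17 ± 0.47, and Vegfb at 0.52 ± 0.12 without a call. Btc, betacellulin, was the 1 lower growth factor. It had 65.1, 77.4 and 90.5 on the transformed-labelled arrays, none of which detected it, and 85.2, 128.3 and 165.7 on the primary-labelled arrays (difference -0.78 ± 0.14, adjusted p = 0.000114). Its sets overlapped under background correction, quantile normalization and median scaling. The other EGF receptor ligands, Tgfa and Hbegf, were not called, at -0.026 ± 0.067 and -0.39 ± 0.18.

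All 5 tested IGF binding proteins were higher, which carry IGFs or, for Igfbp7, bind them weakly, with a median of 3.45, or 2.99 with bounds. Of these, 3 (Igfbp2, Igfbp4 and Igfbp5) were undetected on all primary-labelled arrays, so the filter fixed their direction. Igfbp7 had 11934.2, 14170.3 and 14865.9 on transformed-labelled arrays and 107.8, 123.6 and 137.5 on primary-labelled arrays, all of which detected it (difference 6.71 ± 0.05, adjusted p = 1.2e-23). With background correction the Igfbp7 difference was 7.40, and no fold is given because the primary-labelled signals lay close to background. Igfbp5 had 2168.6, 3825.3 and 6541.4 on transformed-labelled arrays and 55.4, 64.3 and 71.9 on primary-labelled arrays (difference 5.73 ± 0.21, at least 38.4-fold). Igfbp4, Igfbp2 and Igfbp6 differed by 3.45 ± 0.14, 2.55 ± 0.13 and 1.13 ± 0.15.

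Imprinted genes, which are expressed from 1 parental copy, were higher in 6 of 12 tested cases and lower in 1. This is 50.0% and 8.3%, against 14.3% and 17.1% of all genes. Next to Igf2 stood Igf2r, the receptor that clears IGF2, with 792.2, 931.0 and 1169.0 on transformed-labelled arrays and 256.2, 295.4 and 369.1 on primary-labelled arrays (difference 1.60 ± 0.094). Dlk1, a Delta-like surface protein, had 913.0, 1717.1 and 2299.0 on transformed-labelled arrays and 98.9, 111.7 and 201.5 on primary-labelled arrays (difference 3.61 ± 0.16, adjusted p = 1.79e-12), and Ndn, necdin, differed by 1.62 ± 0.11. Phlda2, a placental growth suppressor, ran the other way, with 61.5, 96.1 and 159.1 on transformed-labelled arrays and 181.5, 289.6 and 471.2 on primary-labelled arrays (difference -1.69 ± 0.26, adjusted p = 1.85e-05).

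Growth factor receptors were higher in 13 of 25 tested cases and lower in 2, with a median of 0.76. This is 52.0% and 8.0%, against 14.3% and 17.1% of all genes. Ghr, the growth hormone receptor, had 786.6, 1350.9 and 2517.4 on transformed-labelled arrays and 146.3, 186.4 and 267.3 on primary-labelled arrays (difference 2.73 ± 0.21, adjusted p = 3.19e-09). Osmr, the oncostatin M receptor, differed by 2.26 ± 0.19 and Egfr, the EGF receptor, by 1.86 ± 0.11. Pdgfra, the PDGF receptor alpha of mesenchyme, had 226.4, 465.4 and 983.7 on transformed-labelled arrays and 89.7, 105.2 and 113.0 on primary-labelled arrays (difference 2.08 ± 0.25). Pdgfrb, its beta relative, was split within the transformed-labelled set, with 958.8, 741.8, 751.2 and 924.9 on the arrays without BMP2 and 205.5, 220.1, 213.6 and 237.1 on those with it. All of these were above the primary-labelled arrays, at 100.3, 115.4 and 129.1 (difference 1.80 ± 0.32). Mertk, a TAM receptor, and Met, the HGF receptor, were lower, at -0.86 ± 0.12 and -0.46 ± 0.077. Bmpr2, a type II BMP receptor, was higher by 0.35 ± 0.063 and Bmpr1a was not called (difference 0.16 ± 0.13).

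Cytokines and chemokines were higher in 8 of 16 tested cases and lower in 3, with a median of 0.86, or 0.71 with bounds. The higher share was 50.0%, against 14.3% of all genes, and the lower share, 18.8%, was near the 17.1% of all genes. Of the 16 tested members 9 were undetected throughout 1 set. The filter fixed their direction, so these shares are no test of the set difference. Ccl7, a monocyte attractant, had signals of 4516.1 and 3875.5 untreated, 3751.3 and 3428.2 with ADR, 818.1 and 891.8 with BMP2 and 1083.9 and 1519.8 with both agents on the transformed-labelled arrays (Smad1f/f and Smad1-/-). The primary-labelled arrays had 67.6, 77.2 and 82.3, none of them detected (difference 4.61 ± 0.31, adjusted p = 7.16e-10, at least 21.1-fold). Ccl2, another monocyte attractant, differed by 2.66 ± 0.19. Cxcl12, the ligand of CXCR4 made by stroma, had 802.7, 1450.4 and 2920.2 on transformed-labelled arrays and 51.5, 63.5 and 70.8 on primary-labelled arrays (difference 4.45 ± 0.27, at least 15.5-fold). Cxcl14 differed by 2.59 ± 0.13 and Ptgs2, the inducible cyclooxygenase, by 2.19 ± 0.19. Apart from Il24, the lower members were the interferon-inducible chemokine Cxcl10 and Ccl5, at -1.15 ± 0.089 and -1.06 ± 0.13.

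Glycolysis had 1 of 22 tested members higher and 3 lower, with a median of 0.043. Slc2a3, the high-affinity glucose transporter GLUT3, had 237.5, 270.4 and 440.0 on transformed-labelled arrays and 1158.3, 1570.7 and 2075.3 on primary-labelled arrays (difference -2.48 ± 0.15, adjusted p = 1.71e-10). Slc2a1, the common transporter GLUT1, was not called (difference -0.33 ± 0.17). Pkm, pyruvate kinase, was higher, with 9391.4, 10860.6 and 13439.7 on transformed-labelled arrays and 5184.2, 5522.4 and 6448.8 on primary-labelled arrays (difference 0.89 ± 0.078, adjusted p = 2.64e-08). Pfkm, a phosphofructokinase chain, and Aldoc, an aldolase, were lower, at -0.74 ± 0.10 and -0.51 ± 0.075. Hk2, Ldha and Gapdh were not called, at 0.14 ± 0.26, -0.073 ± 0.12 and 0.26 ± 0.075.

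The tricarboxylic acid cycle and respiration gave 4 of 35 tested members higher and 3 lower, with a median of -0.099. Idh1, the cytosolic NADP-dependent isocitrate dehydrogenase, had 744.3, 929.7 and 1127.8 on transformed-labelled arrays and 228.4, 304.1 and 394.0 on primary-labelled arrays (difference 1.55 ± 0.13, adjusted p = 9.58e-09), and Idh2, its mitochondrial form, differed by 0.73 ± 0.11. Tfam, the factor that packs and transcribes mitochondrial DNA, had 253.5, 331.9 and 491.3 on transformed-labelled arrays and 659.3, 783.8 and 870.5 on primary-labelled arrays (difference -1.29 ± 0.09, adjusted p = 1.14e-09). Subunits of complex II split, with Sdhb at 0.38 ± 0.075 and Sdhc at -0.76 ± 0.085. Both lists held fewer calls for their size than the 31.4% of all genes.

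Synthesis of folate units and nucleotides had 1 of 19 tested members higher and 5 lower, with a median of -0.51. These shares, 5.3% and 26.3%, stand beside 14.3% and 17.1% of all genes. Shmt1, the cytosolic serine hydroxymethyltransferase, had 63.9, 76.2 and 92.2 on transformed-labelled arrays, none of which detected it, and 249.4, 321.9 and 376.0 on primary-labelled arrays (difference -2.09 ± 0.085, adjusted p = 4.93e-13, at least 3.6-fold lower). Umps, of pyrimidine synthesis, and Mthfd1, the cytosolic trifunctional folate enzyme, differed by -1.27 ± 0.18 and -1.18 ± 0.19. The sets of Mthfd1 overlapped under background correction, quantile normalization and median scaling. Aldh1l2, a mitochondrial folate enzyme, was higher, with 220.5, 324.2 and 773.2 on transformed-labelled arrays and 69.0, 82.9 and 108.1 on primary-labelled arrays (difference 1.98 ± 0.21, adjusted p = 2.37e-07). Phgdh, which opens serine synthesis, and Shmt2, the mitochondrial form, were not called, with Shmt2 at -0.30 ± 0.19.

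Amino acid metabolism had 5 of 21 tested members higher and 3 lower, or 23.8% and 14.3%, against 14.3% and 17.1% of all genes. Slc1a4, a carrier of neutral amino acids, had 1261.6, 1710.8 and 2043.5 on transformed-labelled arrays and 194.6, 249.6 and 436.1 on primary-labelled arrays (difference 2.56 ± 0.16, adjusted p = 1.75e-10). Its relative Slc1a5, which takes up glutamine, was lower, at -0.87 ± 0.089, and Slc7a5, the exchanger of large neutral amino acids, was higher by 1.06 ± 0.16. Glud1, glutamate dehydrogenase, was higher by 1.33 ± 0.18. The polyamine enzymes split, with Sat1, which breaks polyamines down, at 1.68 ± 0.20 and Srm, spermidine synthase, at -1.03 ± 0.19. Srm lost its call on untreated arrays alone, at -0.41, and with median scaling, and its second probe was not called, at -0.73. Ass1, of arginine synthesis, differed by 1.60 ± 0.28, and its sets overlapped under background correction and quantile normalization.

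In sterol and fatty acid metabolism 4 of 29 tested members were higher and 0 lower, with a median of 0.20. The higher share, 13.8%, is near the 14.3% of all genes. Fabp3, a carrier of fatty acids in muscle, had 510.7, 862.4 and 3944.3 on transformed-labelled arrays and 106.3, 207.7 and 347.9 on primary-labelled arrays (difference 2.40 ± 0.43, adjusted p = 0.000101). Its 2 highest signals, 3695.7 (Smad1f/f) and 3944.3 (Smad1-/-), were those with both agents. Lpl, lipoprotein lipase, differed by 1.41 ± 0.20, Cyp51, of sterol synthesis, by 0.84 ± 0.19 and Fabp5 by 0.60 ± 0.11. Fasn, Sqle, Hmgcs1 and Scd1 were not called, at -0.27 ± 0.11, 0.20 ± 0.18, 0.84 ± 0.21 and 0.59 ± 0.16.

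Pentose phosphate and redox genes were higher in 12 of 32 tested cases and lower in 0, with a median of 0.55, or 0.50 with bounds. Gpx7, a glutathione peroxidase relative of the endoplasmic reticulum, had 875.9, 1016.6 and 1148.6 on transformed-labelled arrays and 64.5, 81.6 and 92.0 on primary-labelled arrays, none of which detected it (difference 3.58 ± 0.096, adjusted p = 1.2e-15, at least 10.7-fold). Gpx3, the secreted form, had 305.9, 483.4 and 1910.9 on transformed-labelled arrays and 65.1, 81.1 and 146.5 on primary-labelled arrays (difference 2.65 ± 0.36), and its highest signals, 1910.9 and 1758.3, were those with both agents. Cbr2, a carbonyl reductase, and Mgst1 and Gsta4, glutathione transferases, differed by 2.83 ± 0.23, 2.12 ± 0.12 and 1.81 ± 0.25. Nqo1 and Txnrd1, targets of NRF2, were higher by 1.01 ± 0.15 and 0.86 ± 0.17, while Gclm and Akr1b8, which NRF2 also induces, were not called, at -0.40 ± 0.10 and -0.77 ± 0.20. Taldo1 and Tkt, of the pentose phosphate path, were not called either, at -0.018 ± 0.098 and 0.046 ± 0.095.

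Beyond the lists, the genes with the lowest differences had diverse functions. Nup210, a nuclear pore membrane protein, had 62.7, 72.4 and 76.3 on transformed-labelled arrays, none of which detected it, and 655.3, 938.3 and 1452.4 on primary-labelled arrays (difference -3.83 ± 0.17, adjusted p = 2.22e-12, at least 11-fold lower). Its primary-labelled signals were 1452.4, 1103.6, 1264.8 and 1101.9 at 8 h and 774.4, 774.7, 655.3 and 692.1 at 16 h, in the order CTRL, BMP2, ADR and both. The times did not overlap. Nkx2-3, a homeobox factor of the gut and spleen, had 54.5, 68.7 and 80.7 on transformed-labelled arrays and 601.4, 837.5 and 980.9 on primary-labelled arrays (difference -3.62 ± 0.12, at least 9.17-fold lower). Gcnt1, a branching enzyme of O-glycans, differed by -3.12 ± 0.12 and Mpzl2, a junctional adhesion protein of epithelia, by -3.07 ± 0.15. Cdc7, the kinase that fires replication origins, had 137.5, 329.8 and 706.3 on transformed-labelled arrays and 1496.0, 1786.8 and 2113.1 on primary-labelled arrays (difference -2.60 ± 0.29, adjusted p = 4.33e-07). Cmss1, Adat2, a subunit of the tRNA adenosine deaminase, and Hook1, a microtubule linker, differed by -2.51 ± 0.088, -2.49 ± 0.18 and -2.46 ± 0.084.

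Markers of other cell types were read in both sets. The summed signal of the 22 fibroblast list genes on the array ranged from 44555 to 57517 on the transformed-labelled arrays and from 18564 to 23970 on the primary-labelled arrays, and 2 and 7 of them were undetected on all arrays of these sets. For the 23 epithelial genes the sums ranged from 4464 to 11585 and from 5919 to 7641 on the same sets, with 12 and 11 undetected throughout. Of 13 epithelial genes tested 0 were higher and 2 lower, or 15.4% against 17.1% of all genes, with a median of 0.066, and 8 more passed on adjusted p with sets that overlap. The lower ones were Krt18 and Esrp1, an epithelial splicing regulator, with 50.6, 60.0 and 73.1 on transformed-labelled arrays and 206.3, 277.2 and 407.4 on primary-labelled arrays (difference -2.34 ± 0.16, at least 3.33-fold lower). Krt19, Jup, Lgals3 and Krt14 were not called, at 0.83 ± 0.31, 0.90 ± 0.22, 0.92 ± 0.32 and 0.42 ± 0.15. Perp, St14 and Pkp2, on the lower side, were not called either, at -1.07 ± 0.20, -1.02 ± 0.32 and -0.54 ± 0.21. Krt7, another keratin of simple epithelia, had 106.0, 176.3 and 935.1 on transformed-labelled arrays and 76.5, 79.2 and 122.7 on primary-labelled arrays and was not called (difference 1.34 ± 0.37, adjusted p = 0.00415). It lay at 935.1 and 722.6 with both agents and was called without the Smad1-/- ADR array, at 1.52, on Smad1f/f arrays alone, at 1.56, on untreated arrays, at 0.88, without ADR arrays, at 0.85, and without BMP2 arrays, at 0.81.

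Macrophage genes were detected more often on the transformed-labelled arrays. Of 12 macrophage genes on the array 5 were undetected on all transformed-labelled arrays and 11 on all primary-labelled arrays, and their sums ranged from 1290 to 1982 and from 763 to 900 on these sets. The called members, which passed the filter on detection through the transformed-labelled set alone, were Laptm5, a lysosomal protein of blood cells, with 295.1, 387.6 and 645.7 on transformed-labelled arrays and 54.6, 59.6 and 62.8 on primary-labelled arrays (difference 2.71 ± 0.14), Lyz2, lysozyme, at 1.19 ± 0.087, Adgre1, the F4/80 antigen, at 1.05 ± 0.11, and C1qb, of complement, at 0.53 ± 0.072. In that order their bounds were at least 4.36-fold, 1.69-fold, 1.65-fold and 1.0-fold. The part of macrophage RNA in the chemokine and receptor values above was not tested. Endothelial genes gave 1 higher, Emcn at 0.51 ± 0.063, and 1 lower, Egfl7 at -1.36 ± 0.10, of 7 tested, with sums from 1200 to 2162 on the transformed-labelled and from 1484 to 1876 on the primary-labelled arrays. Each call is 14.3% of those tested, near the 14.3% and 17.1% of all genes. Neural genes gave Gap43, a growth cone protein, at 1.79 ± 0.16 as the 1 call of 5 tested. No call was made for the 1 skeletal muscle and 2 adipocyte genes tested, Tnnt1, Adipoq and Pparg, at -0.28 ± 0.078, 0.084 ± 0.061 and 0.50 ± 0.25 (adjusted p = 0.00453, 0.247 and 0.0964). Their sums ranged from 704 to 780 and from 681 to 748 for muscle and from 512 to 801 and from 494 to 572 for fat, in the transformed-labelled and then the primary-labelled set.

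Y-linked genes separated the sets as well. Eif2s3y, a translation factor gene of the Y chromosome, had 373.7, 579.5 and 759.0 on transformed-labelled arrays and 50.0, 60.5 and 66.9 on primary-labelled arrays, none of which detected it (difference 3.11 ± 0.12, adjusted p = 1.97e-13, at least 5.71-fold). Kdm5d, a histone demethylase gene of the same chromosome, differed by 0.69 ± 0.11 and was detected on 5 transformed-labelled arrays and 0 primary-labelled ones. Its bound was at least 1.01-fold, close to no difference. The sets therefore differ in a measured sex-linked transcript as well as in label, and the part of embryo sex in other differences cannot be told apart. Of 11 reference genes tested 3 were higher and 0 lower, with a median of -0.13, or -0.033 with bounds. The higher share was 27.3%, against 14.3% of all genes. Actb, beta actin, had 21561.6, 29173.0 and 34729.8 on transformed-labelled arrays and 10449.9, 12843.7 and 14938.8 on primary-labelled arrays (difference 1.03 ± 0.12), but 1 of its 4 probes differed by -1.57, and 8 of 1767 genes with several kept probes had probes called in opposite directions. B2m, of the class I antigen complex, and Gusb differed by 0.91 ± 0.11 and 0.54 ± 0.11, whereas Gapdh, Ppia and Rplp0 were not called, at 0.26 ± 0.075, 0.016 ± 0.058 and -0.033 ± 0.11.

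Each genotype was also set against the primary-labelled arrays alone. For Acta2 the Smad1f/f and Smad1-/- arrays differed from the primary-labelled arrays by 8.61 and 8.59, for Thy1 by 6.90 and 6.90, for Il24 by -5.51 and -5.53 and for Dusp6 by -2.05 and -1.78. Both values of a pair share the primary-labelled arrays. Against the 8 primary-labelled arrays 3844 genes were called with the 4 Smad1f/f arrays alone and 3958 with the 4 Smad1-/- arrays alone. The rule of no overlap is easier to meet with 4 arrays than with 8, so these counts cannot be set directly against that of all arrays.

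Within each agent, 2 arrays of a set could be set against 2 of the other in 1 fit of all 16, where arrays of a cell differ in genotype or time. Adjusted p passed 47.2% of genes between the untreated arrays, 52.1% with BMP2, 48.1% with ADR and 57.6% with both. The matrix difference was present under each agent, with Col1a1 at 6.86 ± 0.19 untreated, 7.01 ± 0.19 with BMP2, 7.45 ± 0.19 with ADR and 6.77 ± 0.19 with both. Other members varied. Icam1 differed by 1.32 ± 0.11 untreated, 5.08 ± 0.11 with BMP2, 1.57 ± 0.11 with ADR and 5.85 ± 0.11 with both, Vcam1 by 4.37 ± 0.17 untreated, 2.73 ± 0.17 with BMP2, 4.17 ± 0.17 with ADR and 2.56 ± 0.17 with both and Ccl7 by 5.53 ± 0.17 untreated, 3.48 ± 0.17 with BMP2, 5.49 ± 0.17 with ADR and 3.95 ± 0.17 with both. Among the lower genes Il24 differed by -6.26 ± 0.12 untreated, -5.10 ± 0.12 with BMP2, -6.03 ± 0.12 with ADR and -4.70 ± 0.12 with both and Cdc6 by -1.50 ± 0.18 untreated, -1.95 ± 0.18 with BMP2, -1.77 ± 0.18 with ADR and -3.04 ± 0.18 with both. For Dusp6 the values were -1.23 ± 0.16 untreated, -2.91 ± 0.16 with BMP2, -1.66 ± 0.16 with ADR and -1.84 ± 0.16 with both, for Slc2a3 -3.19 ± 0.16 untreated, -2.30 ± 0.16 with BMP2, -2.69 ± 0.16 with ADR and -1.75 ± 0.16 with both, and for Tk1 -0.62 ± 0.14 untreated, -1.32 ± 0.14 with BMP2, -1.30 ± 0.14 with ADR and -3.11 ± 0.14 with both. All of these passed within each agent, and differences between agents were not tested. The Egr1 difference with both agents was -0.53 ± 0.12 (adjusted p = 0.0013), against -1.70 ± 0.12 on the untreated arrays.

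**Figure D5:**
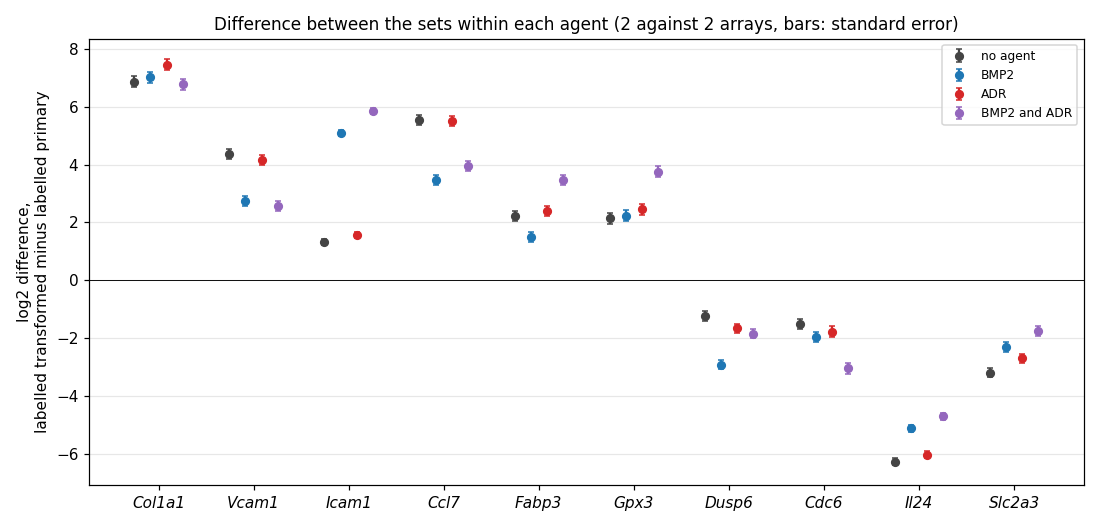
The plot of differences within agents gives the log2 difference, transformed-labelled minus primary-labelled, of 10 genes on 2 arrays against 2, with the standard error as bars and colour for the agent. Col1a1 stays between 6.77 and 7.45, while Icam1 spans 1.32 to 5.85.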

How the data were processed

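Total RNA was labelled with Cy3 and hybridised to 16 Illumina BeadChip arrays, per the labels, and exported with GenomeStudio 2011.1, per the submitters' processing notes. The authors deposited a bead intensity per probe without background subtraction, and a detection p-value column that holds 1 minus p and was turned round. Their deposited table of log2 values, the main measure, holds log2 intensities from which the array's 75th percentile and the probe's median were taken away. The copied intensity column matches in 100% of probes, but its detection values follow it less well (Spearman correlation 0.950) than those of the array it copies (0.989). Of 24613 probes 20984 named 1 gene, 1 several and 3628 none. A probe was kept if 2 or more arrays detected it (p under 0.05), and the brightest stood for its gene.

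The sets were compared with limma 3.58.1 (R 4.3.3) without covariates, two-sided, with Benjamini-Hochberg adjustment over 10982 genes. That fit was tested on simulated data. Differences within agents came from a fit of set by agent, which was not tested in that way. The number of arrays limits the precision, and as no separate cultures are named the p-values may measure technical spread. Of 694 entries in 29 gene lists 609 matched a probe. Members, lists and tests were chosen with earlier results of these data known. Named genes were the 12 highest and 12 lowest called differences, the 6 markers, up to 5 called members per list with the largest differences (2 with the smallest p where none was called), the member furthest against its list, Smad1, Nras, Rb1, Cdkn2a, Gapdh, Actb, sex-linked genes and the 5 most like Il24 and Col1a1. As the arrays form 2 clusters, no correlation of genes over arrays is given. Other list members named, such as Acta1, Plaur, Mcm6, Dusp4, Etv1, Etv5, Egr1, Fn1, Sparc, Tgfb2, Tgfb3, Bmp4, Itga3, Cd44, Tk1, Prrx1 and Mcam, were picked after their values were seen. Promoter windows are RefSeq's (GRCm38.p6). Alternatives were background correction with neqc (offset 16), quantile and median scaling, other filters, probe rules, variance models, terms, thresholds and subsets of arrays, and each array left out in turn.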

Additional observations from a re-analysis of the deposited data

Results flagged for a closer look

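In 155 sets of 8 arrays of named genes, the array at an end of a set was looked for whose gap to its nearest neighbour, over the range of the set, exceeded 0.526 (Dixon's critical value for 8 arrays, scaled log2 values). There were 7 such arrays, about what chance gives at 1 in 20. On the transformed-labelled arrays Bgn was highest on the Smad1-/- ADR array, at a signal of 6879.5, Efnb1 lowest on the Smad1f/f ADR array, at 1155.4, Tgfb3 highest on the untreated Smad1-/- array, at 2144.1, and Ccdc80, a matrix gene, highest after scaling on the Smad1f/f ADR array, at 6091.6. On the primary-labelled arrays Pfkm was highest on the 16 h ADR array, at 1420.5, Idh2 lowest on the 16 h BMP2 array, at 712.5, and Plaur lowest on the 16 h ADR array, at 726.2.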

How the results depend on the processing

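Of 5307 values of the 161 named genes under the alternatives, 5229 kept their direction and side of the call, 33 lost the call, 27 gained it and 18 changed sign. Counts of called genes, higher and lower on the transformed-labelled arrays and together, were 1566, 1878 and 3444. They moved by over 1.5 times to 910, 584 and 1494 with a log2 difference of at least 1, by construction, to 2881, 3698 and 6579 with adjusted p alone, by construction, and to 2464, 3226 and 5690 without the arrays with BMP2, where 4 arrays face 4. Fewer arrays make the rule of no overlap easier to meet, which raises counts in any subset of arrays. How much of the rise comes from this was not tested. Leaving out each array gave 1577 to 1644, 1898 to 1982 and 3487 to 3584, with the same limit. The median difference of all genes was -0.0494, -0.1007 with background correction, -0.0653 with quantile normalization and -0.0167 with median scaling. Genes whose sign turned were not called. Kif23 stood at -0.052 with background correction, -0.048 with quantile normalization, -0.12 without the 0 h arrays, and between -0.025 and 0.16 without single arrays. Smad1 stood at 0.022 with median scaling, 0.19 on untreated arrays, 0.22 without BMP2 arrays, 0.025 without the 0 h arrays, and between -0.075 and 0.06 without single arrays. Pparg turned to -0.054 on Smad1f/f arrays, Nras to 0.025 on untreated arrays and Rb1 to 0.065 without the 0 h arrays. The endothelial median turned to -0.11 on untreated arrays and -0.062 without BMP2 arrays. The causes were not tested. A slide block was not run because no slide is named. No paired analysis was possible because all labels give the same replicate number, so numbers pair no arrays. The fit with BMP2 and ADR as terms called 3444 genes. Non-overlap was read there from the same values without those terms, so this count could hardly change and does not test the part of the agents.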
